A study of Arabidopsis thaliana with 2 samples.

Results

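Pollen tube reception is the step at which the female gametophyte makes an arriving pollen tube stop, burst and release the sperm. The genes described here are 10 loci of *Arabidopsis thaliana* chosen by name: the receptor kinase genes FER, HERK1, ANJ, ANX1 and ANX2, the genes LRE, LLG1, LLG2 and LLG3 of the LORELEI family, and the MLO family gene NTA. Of the 10, 8 were among the 17419 loci listed in at least 1 library. The data are RNA-Seq libraries of 1 condition, mature central cells from emasculated, wild-type flowers of the accession Landsberg *erecta*, cut out by laser-assisted microdissection. The 2 biological replicates, CC1 and CC2, each pooled sections of about 450 cells. There is no mutant, treatment or second cell type, so that nothing was tested between groups. The values are hits, estimated counts of reads per locus, and the authors left out a locus under 5 hits or without any close to a transcript's 3′ end. A missing value is therefore not a measurement of 0.

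FER (FERONIA), HERK1 and ANJ (ANJEA) belong to the CrRLK1L family, plasma membrane receptor kinases whose extracellular malectin-like domains bind small secreted RALF peptides. In the synergids, the cells beside the egg cell that receive the pollen tube, these receptors sit at the filiform apparatus, and loss of FER leads to pollen tubes that grow on without bursting. LRE (LORELEI) and its relatives are small proteins held to the membrane by a glycosylphosphatidylinositol anchor, which act as co-receptors and help FER to reach the cell surface. NTA (NORTIA, also MLO7) is a membrane protein with several passes that moves to the filiform apparatus of the synergids when the pollen tube arrives. ANX1 and ANX2 (ANXUR) act on the male side, in the pollen tube, where they keep the tube intact, and LLG2 and LLG3 are co-receptors there. The central cell itself, the neighbour of the synergids, becomes the endosperm once fertilized.

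The 4 LORELEI family proteins are short, with 165 residues for LRE, 168 for LLG1, 163 for LLG2 and 160 for LLG3. The following stretch of 120 coding bases lies in a single exon of each gene. It is shown because, among such stretches, the 4 aligned genes are most alike there without a gap. It shows how close, and how distinct, the transcripts counted here are. It was read from the RefSeq assembly TAIR10.1, which is the accession Columbia, 5′ to 3′ on the strand of the gene. Bases in capitals are the same in all 4 genes.
LRE: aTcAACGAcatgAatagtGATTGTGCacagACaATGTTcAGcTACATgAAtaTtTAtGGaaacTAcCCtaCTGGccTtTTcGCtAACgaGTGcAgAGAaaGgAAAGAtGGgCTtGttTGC
LLG1: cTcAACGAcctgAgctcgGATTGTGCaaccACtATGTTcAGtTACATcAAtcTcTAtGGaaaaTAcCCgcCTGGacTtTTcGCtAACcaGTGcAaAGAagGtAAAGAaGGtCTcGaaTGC
LLG2: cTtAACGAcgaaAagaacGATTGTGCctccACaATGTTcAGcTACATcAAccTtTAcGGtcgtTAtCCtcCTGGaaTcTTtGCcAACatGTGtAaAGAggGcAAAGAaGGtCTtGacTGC
LLG3: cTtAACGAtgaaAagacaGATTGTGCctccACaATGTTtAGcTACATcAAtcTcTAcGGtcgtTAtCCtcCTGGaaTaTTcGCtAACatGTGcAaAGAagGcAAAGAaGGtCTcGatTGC
The stretches lie at chr4:13367765-13367884 (minus strand) for LRE, chr5:22736869-22736988 (plus strand) for LLG1, chr2:8925123-8925242 (minus strand) for LLG2 and chr4:14011269-14011388 (plus strand) for LLG3, in the coding sequence from codon 87 to 126 in LRE. In this stretch, 73 of the 120 bases (60.8%) were the same in all 4 genes, and the longest run of such bases was 8. With the proteins aligned in pairs, LRE and LLG1 shared 60.9% of their aligned residues and LLG2 and LLG3 shared 75.6%. LRE shared 45.6% with LLG2. The longest identical run in the coding sequences of the closest pair, LLG2 and LLG3, was 23 bases. It is shorter than the reads of 50 bases.

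The 5 receptor genes were compared in the same way in the part that encodes the kinase. The stretch is shown because, among stretches of this length in a single exon of each gene, the 5 genes have the most bases in common there. Longer identical runs of 2 genes can lie elsewhere. Bases in capitals are the same in all 5 genes.
FER: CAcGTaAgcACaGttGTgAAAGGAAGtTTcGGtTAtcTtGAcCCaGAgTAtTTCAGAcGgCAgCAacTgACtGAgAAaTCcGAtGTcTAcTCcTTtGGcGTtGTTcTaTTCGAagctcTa
HERK1: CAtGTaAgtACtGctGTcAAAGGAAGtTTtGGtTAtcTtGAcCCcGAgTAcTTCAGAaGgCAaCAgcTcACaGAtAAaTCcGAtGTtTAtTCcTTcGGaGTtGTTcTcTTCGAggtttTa
ANJ: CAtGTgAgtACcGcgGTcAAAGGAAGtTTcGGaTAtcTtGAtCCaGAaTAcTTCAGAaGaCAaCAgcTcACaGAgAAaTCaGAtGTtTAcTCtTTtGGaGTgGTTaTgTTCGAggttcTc
ANX1: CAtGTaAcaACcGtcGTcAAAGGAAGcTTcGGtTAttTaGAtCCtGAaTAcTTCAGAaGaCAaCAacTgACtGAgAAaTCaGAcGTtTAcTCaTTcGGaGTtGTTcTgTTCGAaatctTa
ANX2: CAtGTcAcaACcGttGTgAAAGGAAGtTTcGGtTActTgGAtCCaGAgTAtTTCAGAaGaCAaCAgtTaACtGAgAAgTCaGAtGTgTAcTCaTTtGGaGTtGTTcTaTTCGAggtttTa
The stretches lie at chr3:19118369-19118488 (minus strand) for FER, chr3:17014929-17015048 (plus strand) for HERK1, chr5:24053072-24053191 (minus strand) for ANJ, chr3:1273803-1273922 (minus strand) for ANX1 and chr5:10719866-10719985 (minus strand) for ANX2 of TAIR10.1. Here 77 of the 120 bases (64.2%) were the same in all 5 genes, again with a longest run of 8. HERK1 and ANJ shared 76.4% of their residues and ANX1 and ANX2 shared 86.4%, while FER shared 57.2% with ANX1 and 47.0% with HERK1. The longest identical coding run of HERK1 and ANJ had 33 bases and is shown because it was the longest between any 2 of the 5 receptors.
HERK1 and ANJ: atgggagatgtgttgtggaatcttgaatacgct
It lies at chr3:17015250-17015282 (plus strand) in HERK1 and at chr5:24052838-24052870 (minus strand) in ANJ. No stretch of 50 bases of FER, ANJ, ANX2, LRE, LLG1 or NTA was found in any other nuclear transcript of the annotation. HERK1, ANX1, LLG2 and LLG3 had such stretches, and each of these was shared with a gene that overlaps it on the other strand, not with a gene of its family. The search was for exact matches, whereas an aligner also allows mismatches, and Landsberg *erecta* can differ from Columbia.

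Of the 10 genes, only LRE and NTA were listed in both replicates. FER, ANJ and LLG2 were listed in CC1 alone, HERK1, LLG1 and LLG3 in CC2 alone, and ANX1 and ANX2 in neither. Over all 27444 nuclear protein-coding loci, 47.2% were listed in both replicates, 13.3% in 1 replicate only and 39.5% in neither. Among the 10 genes these counts were 2, 6 and 2. The 10 genes were chosen by name for their function, and no test was made of the difference. These genes and all lists of other genes below were chosen with earlier results of these data known. The files list 14454 loci with 15257122 hits for CC1 and 16391 loci with 14857500 hits for CC2. One hit is therefore worth 0.0655 hits per 1000000 listed hits (HPM) in CC1 and 0.0673 HPM in CC2. Summed over the listed genes among the 10, the level was 101 HPM in CC1 and 65.0 HPM in CC2 (83.2 ± 25.8, SD, n = 2), with an unlisted gene entered as 0.

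**Figure D1:**
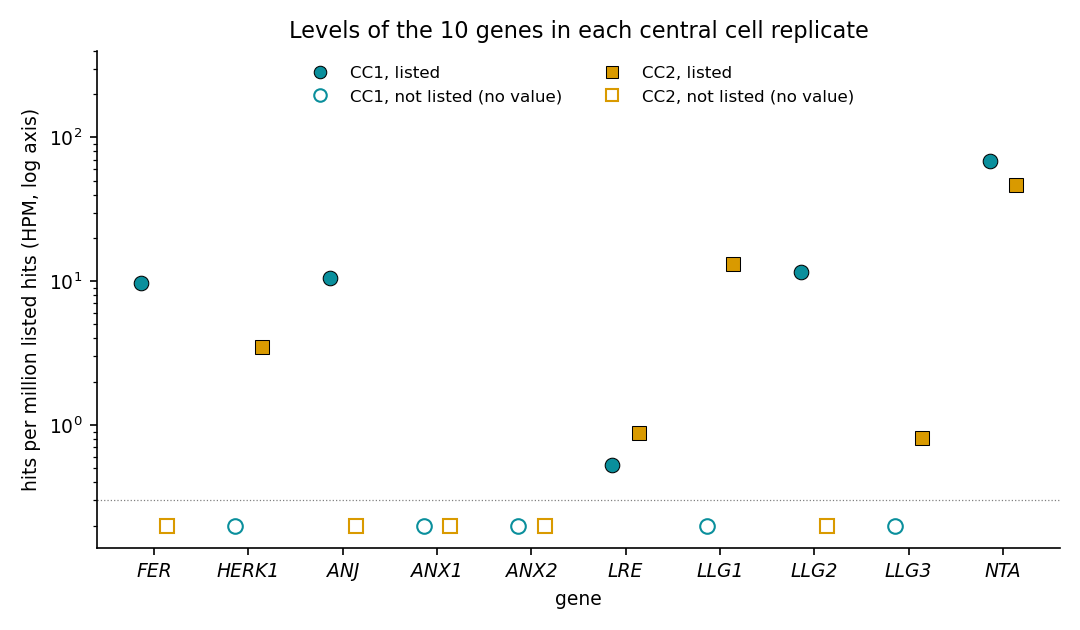
Level of the 10 genes in each central cell replicate, in hits per 1000000 listed hits on a log axis (circles, CC1; squares, CC2). Open symbols below the dotted line mark genes that were not listed and have no value. NTA lies highest in both replicates, LRE is the only other gene with 2 values, and ANX1 and ANX2 have none.

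FER (AT3G51550) lies at chr3:19117584-19120949 on the minus strand of TAIR10.1, with 2 exons and a transcript of 3191 bases. It had 148 hits in CC1 (9.70 HPM, exact 95% Poisson interval of the hits 125 to 174) and was not listed in CC2. These intervals cover counting error only, since amplified reads are not independent molecules. In CC1, FER stood at the 31.6th percentile of the listed protein-coding loci by hits, that is in the lower part of the expressed genes. Of the 2597 loci with hits within 1.5 times those of FER in CC1, 203 (7.82%) were likewise not listed in CC2. FER overlaps no other annotated gene.

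HERK1 (AT3G46290) lies at chr3:17012500-17015885 on the plus strand, with a transcript of 3260 bases. It had 52 hits in CC2 (3.50 HPM, 38.8 to 68.2 hits), the 19.4th percentile, and was not listed in CC1. At this level, 852 of 2118 loci of like hits (40.2%) were missing from CC1. A non-coding RNA gene, AT3G07375, lies antisense over 469 bases of HERK1, and AT3G46300 over 109 bases at its 3′ end. Neither was listed in a replicate, and whether AT3G07375 was in the annotation used by the authors is not known here. The libraries do not keep the strand, so that within the overlaps reads from HERK1 and from these genes cannot be told apart. Of the 3211 stretches of 50 bases in HERK1, 480 (14.9%) were shared with them.

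ANJ (AT5G59700) is the closest relative of HERK1 among the 10 and acts redundantly with it in the synergids. It lies at chr5:24052383-24055660 on the minus strand, has a transcript of 3098 bases and overlaps no other gene. It had 161 hits in CC1 (10.6 HPM, 137 to 188 hits), the 33.6th percentile, and was not listed in CC2. Of the 2680 loci of like hits in CC1, 182 (6.79%) were not listed in CC2 either. With 1 listing each, HERK1 had no replicate in common with ANJ or FER. A listing in 1 replicate only was that of 13.3% of all nuclear protein-coding loci, and 40.2% of the loci of like hits to HERK1 in CC2 were missing from CC1. No test was made of this. FER and ANJ stood within each other's counting intervals in CC1.

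ANX1 (AT3G04690, chr3:1273057-1276945, minus strand, transcript of 3807 bases) and ANX2 (AT5G28680, chr5:10719127-10722361, minus strand, transcript of 3139 bases) were not listed in either replicate. This is the class of 39.5% of all nuclear protein-coding loci. In TAIR10.1, ANX1 overlaps AT3G04700 and TPR10 (AT3G04710) by 278 bases on the other strand. The overlap lies at the 5′ end of ANX1. AT3G04700 had 178 hits in CC1 against 194 in CC2, and TPR10 1192 and 875, all of them fractional. Within the shared bases, reads of these genes cannot be told apart, and ANX1 holds no hits in the files. ANX2 overlaps no other gene. Because a locus with fewer than 5 hits, or with none near its 3′ end, was left out of the files, the absence of ANX1 and ANX2 sets no upper limit on their transcripts.

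LRE (AT4G26466), the co-receptor gene of the synergids, lies at chr4:13367625-13368629 on the minus strand, with 3 exons and 518 transcript bases. It was listed with 8 hits in CC1 (3.45 to 15.8) and 13 in CC2 (6.92 to 22.2), close to the minimum of 5. The counting intervals of the replicates overlap. In HPM this was 0.52 and 0.87 (0.70 ± 0.25, SD, n = 2), at the 1.31st and the 4.51st percentile of the listed protein-coding loci. The log2 ratio of CC2 to CC1 was 0.74. Over the 155 loci with a like mean number of hits the median of its absolute value was 0.77, and 51.6% of them differed more. LRE was listed in both replicates although, at its hits, 34.1% (CC1) and 57.7% (CC2) of the loci had no value in the other replicate. With a minimum of 10 hits it drops out of CC1, which leaves NTA as the only gene listed in both.

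LLG1 (AT5G56170), the relative of LRE that acts with FER in vegetative tissues, had more hits than LRE in CC2. It had 197 hits there (13.3 HPM, 170 to 227 hits), the 45.3rd percentile, and was not listed in CC1. It lies at chr5:22735899-22737339 on the plus strand, with a transcript of 911 bases. Per kilobase of transcript, LLG1 stood 8.62-fold above LRE in CC2, and 15.2-fold without division by length. Of 3147 loci of like hits in CC2, 331 (10.5%) were not listed in CC1. The 3′ ends of LLG1 and the actin-related gene ARP8 overlap by 15 bases, and ARP8 had 343 and 246 hits.

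LLG2 (AT2G20700), at chr2:8924894-8925804 on the minus strand with a transcript of 691 bases, was listed in CC1 only. It had 178 hits (11.7 HPM), the 35.8th percentile, against 8 hits of LRE in the same replicate, which is 16.7-fold higher per kilobase. The value of LLG2 is the only one among the 10 genes that was not a whole number. Part of its hits was therefore weighted over several alignments or shared out between loci. Its 3′ end overlaps that of AT2G20690 on the other strand by 81 bases. This neighbour had 217 and 389 hits, fractional in both replicates although LLG2 was not listed in CC2. Both genes together had 394 hits in CC1 and 389 in CC2. In HPM the sum was 25.9 and 26.2. The replicates were thus nearly equal in the sum and unequal in the listing of LLG2. Sums of other overlapping pairs were less alike. LLG1 and ARP8 together had 22.5 HPM in CC1 and 29.8 in CC2, and LLG3 and AT4G28290 had 3.67 and 0.81. Of the 642 stretches of read length in LLG2, only 32 (4.98%) were shared with AT2G20690. The part that the sharing of hits has in the listing of LLG2 was not tested.

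LLG3 (AT4G28280), at chr4:14010685-14012700 on the plus strand, had 12 hits in CC2 (0.81 HPM, 6.20 to 21.0 hits), the 3.95th percentile, and was not listed in CC1. Of 911 loci of like hits in CC2, 530 (58.2%) were not listed in CC1. In TAIR10.1, 1428 exonic bases of LLG3 are shared with AT4G28290 on the other strand. That gene was listed in CC1 only, with 56 hits. Reads from these shared bases cannot be told apart.

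NTA (AT2G17430) was the most abundant of the 10 genes. It lies at chr2:7568018-7570912 on the plus strand, has 14 exons and a transcript of 1783 bases, and overlaps no other gene. It had 1053 hits in CC1 (990 to 1119) and 691 in CC2 (640 to 744), or 69.0 and 46.5 HPM (57.8 ± 15.9, SD, n = 2). It thus stood at the 82.4th and the 77.7th percentile of the listed protein-coding loci. The counting intervals of the hits did not overlap, and the log2 ratio of CC2 to CC1 was -0.57. Among the 2388 loci with a like mean number of hits, the median of the absolute ratio was 0.42 (quartiles 0.20 and 0.74), and 36.4% differed more. The difference of NTA between the replicates is therefore within the usual spread of loci of its abundance. At the hits of NTA, 3 of 2139 loci of CC1 (0.140%) and 17 of 2783 of CC2 (0.611%) were missing from the other replicate.

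**Figure D2:**
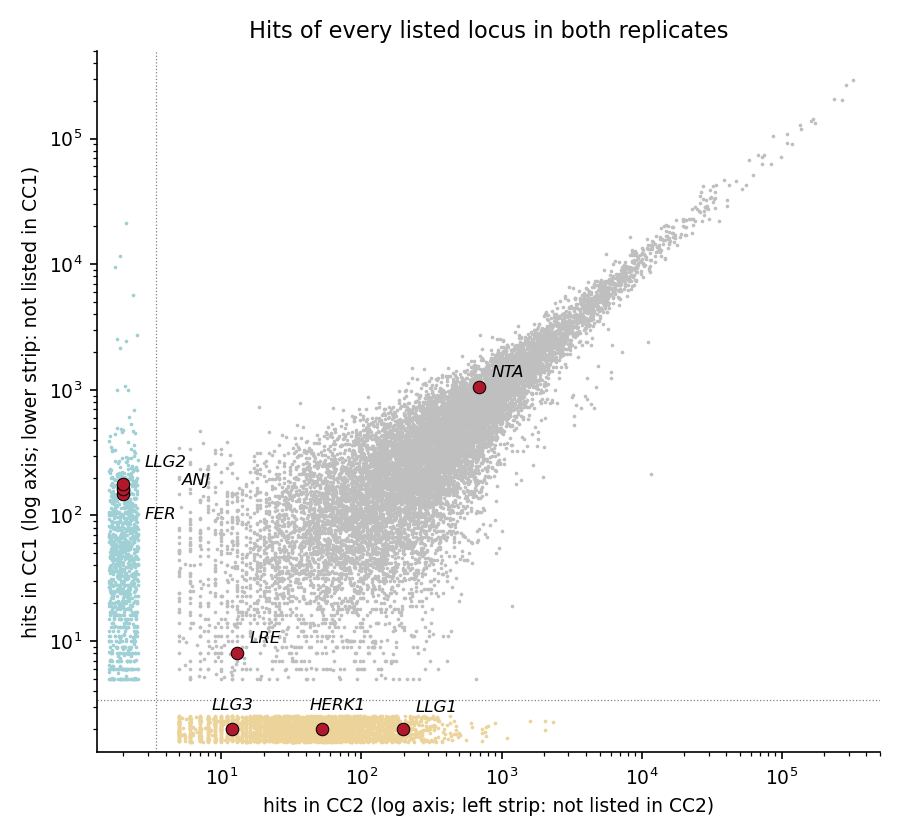
Hits of every listed locus in CC2 (x axis) and CC1 (y axis), both on log axes, with the listed genes among the 10 in red. Loci listed in 1 replicate only are drawn in the strips at the left and at the bottom, spread at random across the strip. NTA lies within the cloud, LRE at its lower end, and the other 6 genes lie in the strips.

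The share of loci listed in both replicates rose with the hits, and CC1 listed fewer of the weak loci than CC2. In CC2, 58.0% of the loci with 10 or more but under 20 hits had no value in CC1. With 160 or more but under 320 hits, 7.96% had none. For CC1, the same classes had 28.2% and 3.48%. HERK1 and LLG3 fell in the range where missing from the other replicate was common. FER, ANJ, LLG1 and LLG2 had 148 to 197 hits, where it was less common. The study describes that the cDNA of CC1 was somewhat shorter, with a lower yield. The part of the library in the listing of these genes was not tested.

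**Figure D3:**
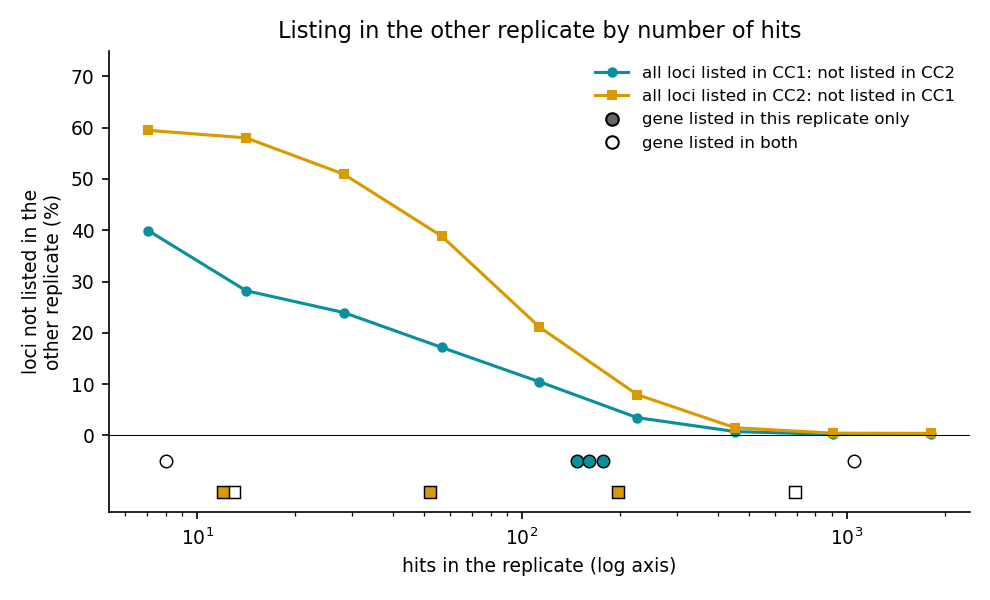
Share of all listed loci that were not listed in the other replicate (y axis, percent) by the number of hits (x axis, log, classes that double from 5 hits on). The symbols below 0 mark the hits of the 10 genes, filled where a gene was listed in that replicate only and open where it was listed in both. The share was 39.9% in the lowest class and 0.275% in the highest for CC1, and 59.5% and 0.413% for CC2.

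Levels of different genes were set side by side per kilobase of transcript. On this scale NTA stood first in both replicates, with 38.7 HPM per kb in CC1 and 26.1 in CC2. In CC1 it was followed by LLG2 with 16.9, ANJ with 3.41, FER with 3.04 and LRE with 1.01. In CC2 the order was NTA, LLG1 with 14.6, LRE with 1.69, HERK1 with 1.07 and LLG3 with 0.45. ANJ and FER in CC1, and LRE and HERK1 in CC2, did not differ beyond their counting intervals. The other neighbours in each order had intervals that did not overlap, but for HERK1 and LLG3 this depends on the transcript: with its shortest one of 874 bases, LLG3 had 0.92 HPM per kb (0.48 to 1.61), which overlaps HERK1 (0.80 to 1.41). Such intervals hold counting error within 1 library and not the spread between replicates. Those of NTA itself did not overlap between CC1 and CC2. The order of genes with 1 value is therefore not established over replicates. LRE and NTA are the only genes with a range over replicates, and their ranges did not overlap. NTA stood 38.2-fold above LRE in CC1 and 15.4-fold in CC2. The cDNA was primed at the poly(A) tail and covers long transcripts mainly at the 3′ end, so that division by length lowers the receptor genes, with their transcripts of about 3 kb, relative to the others. Without division by length, NTA stood 132-fold above LRE in CC1 and 53.2-fold in CC2. LRE was the lowest listed gene in CC1 with or without this division. In CC2, HERK1 stood above LRE and LLG3 without it.

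The CrRLK1L family has 17 genes in *Arabidopsis*, and its most abundant members in the central cell libraries were not among the receptors of pollen tube reception. Of the 17, 3 were listed in both replicates, 3 in CC1 only, 3 in CC2 only and 8 in neither. This is 17.6% in both and 47.1% in neither, beside 47.2% and 39.5% of all nuclear protein-coding loci, with no test of the difference. MDS4 (AT5G39030), of the MEDOS genes that affect growth on metal ions, had 1962 hits in CC1 and 1906 in CC2 (128 ± 0.23 HPM, SD, n = 2). MDS3 (AT5G39020), its neighbour in the genome, had 457 and 499 hits (31.8 ± 2.58 HPM). The uncharacterized AT2G23200 had 207 and 225 hits (14.4 ± 1.11 HPM). FER, HERK1 and ANJ had 1 value each and so no spread to set beside these. Per kilobase, MDS4 stood 15.1-fold above FER and 13.4-fold above ANJ in CC1, and 42.5-fold above HERK1 in CC2.

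The other members of the family were found in 1 replicate or in none. CVY1 (CURVY1), a gene of cell shape in the leaf, had 147 hits in CC1 only, next to FER with 148 and ANJ with 161. MDS1 had 137 hits and BUPS1, the partner of ANX1 and ANX2 in the pollen tube, had 13, both in CC2 only. Besides ANX1 and ANX2, the wall integrity receptor gene THE1, HERK2, BUPS2, CAP1, MDS2 and AT5G24010 were unlisted in both. MDS1 and MDS2 shared 328 stretches of 50 bases, so that their hits are uncertain, while MDS3 and MDS4 shared only 4. AT2G23200 shared 440 such stretches with AT2G23210. The summed level of the family was 202 HPM in CC1 and 191 in CC2.

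Of the 15 MLO genes, 7 were listed in both replicates, 3 in CC2 only and 5 in neither, and NTA was the second most abundant. The share listed in both, 46.7%, is close to the 47.2% of all nuclear protein-coding loci. MLO10 (AT5G65970), which shares 73.3% of its residues with NTA, was the first, with 2974 hits in CC1 and 3846 in CC2 (227 ± 45.2 HPM, SD, n = 2). Per kilobase, it stood 2.34-fold above NTA in CC1 and 4.61-fold in CC2. MLO10 was higher and NTA lower in CC2 than in CC1. The longest identical coding run of both genes was 29 bases, and neither had a stretch of 50 bases in common with another transcript. MLO8, of the same clade and with 63.0% of its residues shared with NTA, had 130 and 263 hits (13.1 ± 6.49 HPM), and MLO9, with 61.1%, was not listed.

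MLO1 came after NTA with 593 and 502 hits (36.3 ± 3.59 HPM). MLO11, which with MLO4 shapes root growth, had 121 and 168 hits (9.62 ± 2.39 HPM). MLO13 differed most between the replicates, with 189 and 48 hits (7.81 ± 6.47 HPM), and MLO15 had 54 and 42 (3.18 ± 0.50 HPM). In CC2 only, MLO4 had 196 hits, MLO3 18 and the powdery mildew susceptibility gene MLO2 15. Its relatives MLO6 and MLO12 were listed in neither replicate, and neither were MLO5 and MLO14. The family summed to 335 HPM in CC1 and 390 in CC2.

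**Figure D4:**
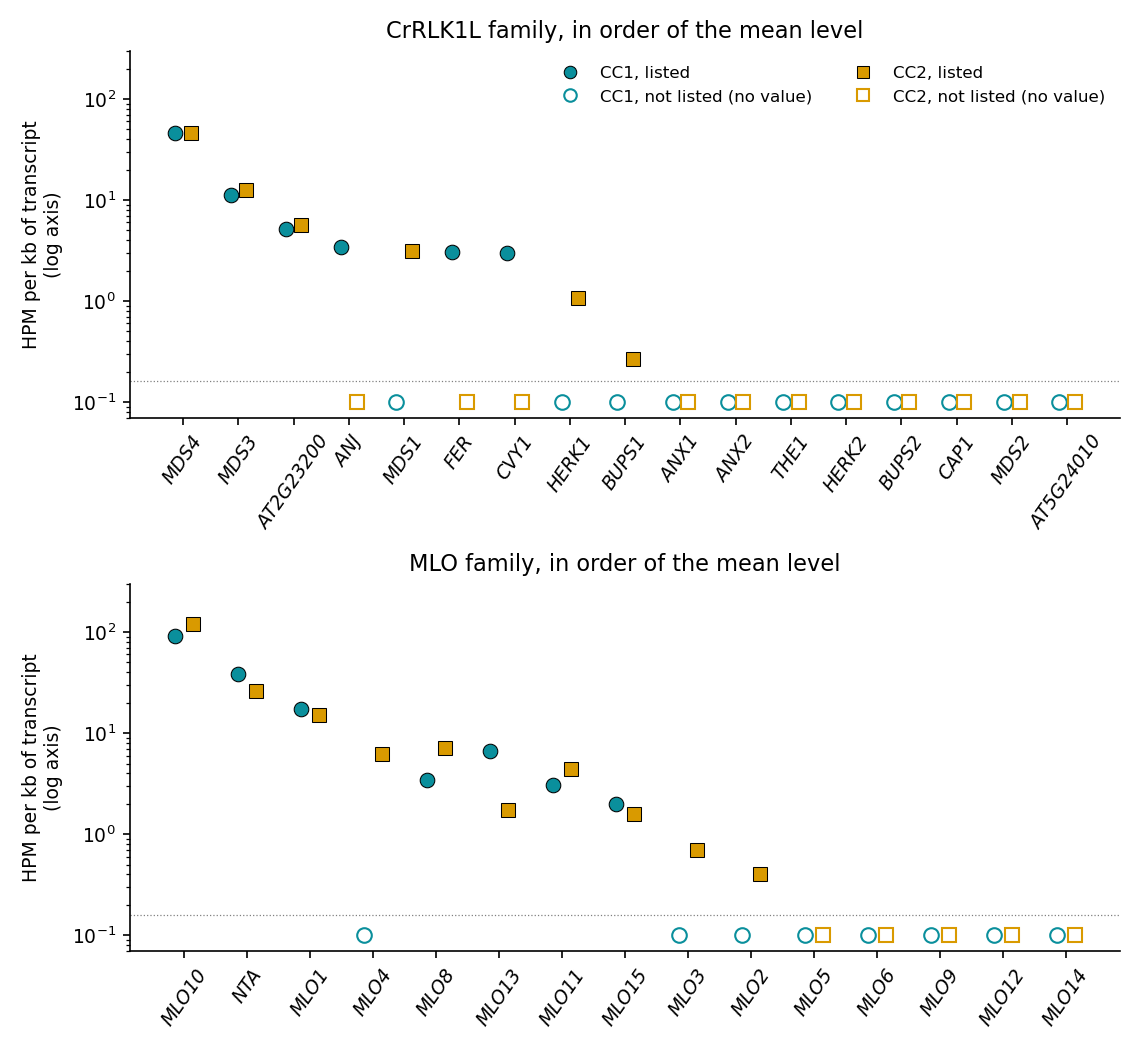
Levels of the 17 CrRLK1L genes (top) and the 15 MLO genes (bottom) in HPM per kilobase of transcript, on log axes, ordered by the mean over the replicates in which a gene was listed. Open symbols mark unlisted genes, which have no value. MDS4 leads the first family with 45.8 and 45.6, and MLO10 and NTA lead the second.

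Of 11 RALF genes examined as ligands of the receptors, a chosen part of that family, 4 were listed in both replicates and 7 in neither, where 47.2% and 39.5% of all nuclear protein-coding loci were. RALF34, known in the root as a ligand of THE1, had 590 hits in CC1 and 263 in CC2 (28.2 ± 14.8 HPM, SD, n = 2). RALF33 had 221 and 243 hits (15.4 ± 1.32 HPM), and RALF23, a FER ligand in immunity, 20 and 23 (1.43 ± 0.17 HPM). The pollen tube ligand gene RALF4, named after its values were seen, was listed with 14 and 11 hits. Of 11 genes of leucine-rich repeat extensins, wall proteins that bind RALF peptides, LRX3 alone was listed in both replicates, with 74 and 181 hits. LRX9 with 65 hits, LRX4 with 43 and 2 others were listed in CC2 only, and 6 in neither. The shares of all nuclear protein-coding loci were 47.2% in both replicates, 13.3% in 1 replicate only and 39.5% in neither. CC2 listed more loci than CC1 (16391 against 14454).

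Partners of FER, together with other genes of pollen tube reception and of the pollen tube, ranged from the most abundant transcripts to unlisted ones. Of 23 genes examined, 11 were listed in both replicates, 1 in CC1 only, 3 in CC2 only and 8 in neither, so that 47.8% were listed in both, near the 47.2% of all protein-coding loci. GRP7, an RNA-binding protein that FER phosphorylates, had 26590 hits in CC1 and 27638 in CC2 (1802 ± 83.0 HPM, SD, n = 2). ENODL11 and ENODL12 are early nodulin-like proteins, of a group described as partners of FER at the filiform apparatus. ENODL11 had 22900 and 30449 hits (1775 ± 388 HPM), and ENODL12 had 16097 and 17185 (1106 ± 71.8 HPM). Per kilobase, ENODL11 stood 44.7-fold above NTA in CC1 and 90.5-fold in CC2, and without division by length 21.7-fold and 44.1-fold. Their relatives, named after their values were seen, had fewer hits: ENODL13 had 19 and 62 hits, and ENODL14 with 47 and ENODL15 with 256 were listed in CC2 only.

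The genes of the partner list that are named from here on were chosen after their values were seen. EVN, a dolichol kinase gene, and TUN, a glycosyltransferase gene, are both required for pollen tube reception. EVN had 32 hits in CC1 against 471 in CC2 (log2 ratio 3.92), while TUN had 255 and 288. The phosphatase genes AUN1 with 91 and 123 hits and AUN2 with 169 and 307 hits, which act after the ANX receptors in the pollen tube, were listed in both replicates. The kinase genes MRI and RIPK were listed in neither, nor were the NADPH oxidase genes RBOHD, RBOHH and RBOHJ. RBOHF had 23 hits in CC2.

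**Figure D5:**
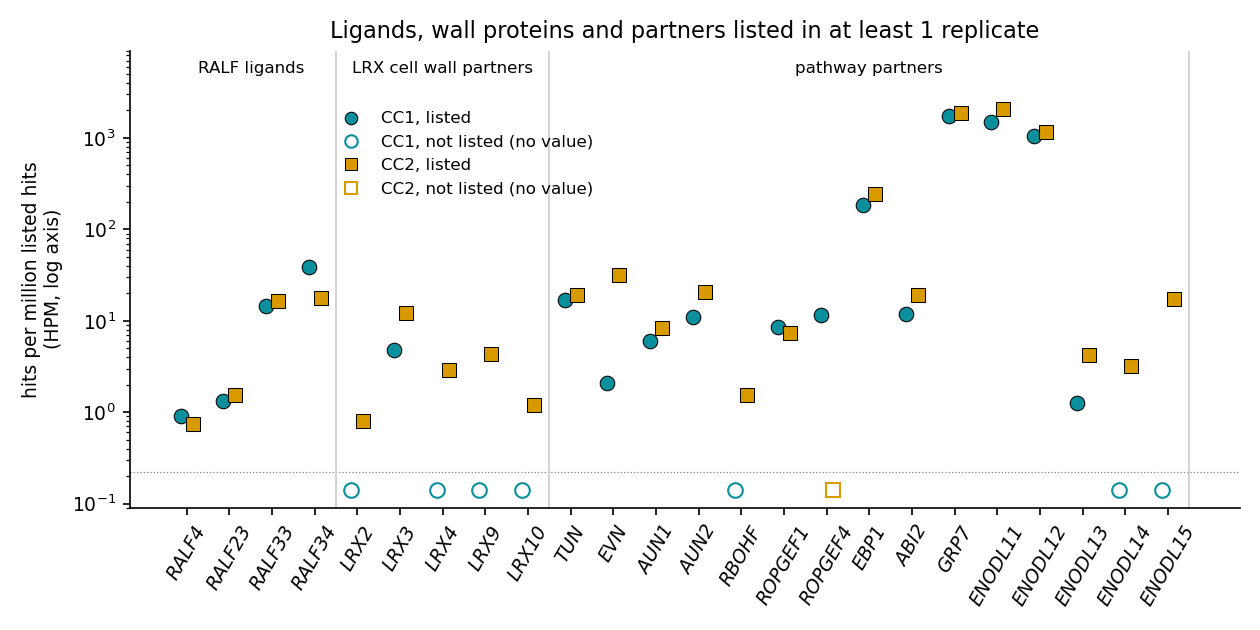
Level of the RALF, LRX and partner genes that were listed in at least 1 replicate, in HPM on a log axis (circles, CC1; squares, CC2; open symbols, not listed). GRP7, ENODL11 and ENODL12 lie between 1055 and 2049 HPM, the RALF and LRX genes at 38.7 HPM or below, and EVN has the widest distance between its replicates.

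Markers of the central cell and of the cells next to it were listed with the values given here, since several of the 10 genes are known from the synergids. For the counts that follow, the share of all nuclear protein-coding loci listed in both replicates was 47.2%. All 8 central cell markers were listed in both replicates, led by DD36, DD46 and FWA, with a summed level of 15488 HPM in CC1 and 17689 in CC2. DD36 held most of this sum. The other 7 summed to 1992 HPM in CC1 and 1735 in CC2, and 6 of them were lower in CC2. Of 8 synergid markers, 6 were listed in both replicates. Their summed level was 242 HPM in CC1 and 1186 in CC2, which is 4.90-fold higher in CC2. LURE1.3 led with 90.3 and 406 HPM, followed by LURE1.5 and LURE1.2. These pollen tube attractant genes had fractional hits, so that part of them was weighted over several alignments or shared between loci. Of the others, the regulator gene MYB98 was listed in neither replicate, and VDD had 50 hits in CC2 only. Among the 10 genes, NTA had 69.0 HPM in CC1 and 46.5 in CC2, and LRE had 0.52 and 0.87. FER, ANJ and LLG2 were listed in CC1 only, and HERK1, LLG1 and LLG3 in CC2 only. Egg cell markers, listed in both replicates for 6 of 7 genes and led by EC1.1, EC1.5 and EC1.4, summed to 1356 HPM in CC1 and 909 in CC2. Each of the EC1 genes was lower in CC2. RKD2 went the other way, with 18 hits in CC1 and 93 in CC2, and RKD1 was listed in neither. The part of synergid or egg cell RNA in the values of the 10 genes was not tested. Transcripts of the marker genes made in the central cell itself cannot be told apart from RNA of neighbouring cells. Nor can fewer cells of a type be told apart from less RNA per cell.

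The lists of pollen and ovule markers are short, and no test was made of their listing. Beside them, 47.2% of all nuclear protein-coding loci were listed in both replicates, 13.3% in 1 replicate only and 39.5% in neither. Of 6 pollen and sperm markers, 3 (50%) were listed in both replicates, 2 in CC1 only and 1 in neither. Their sum was 37.1 HPM in CC1 and 15.9 in CC2. The sum was led by CNGC18, with 458 and 134 hits, and without it was 7.12 and 6.87 HPM. VGD1 had 58.6 and 55 hits, ACA9 6 and 47, and the sperm gene HAP2 37 in CC1 only. Of 5 ovule genes, BAN was listed in both replicates with 72 and 17 hits and STK in CC2 only with 172, while ANT, INO and BEL1 were unlisted. LLG2, listed in CC1 only, and LLG3, in CC2 only, are pollen tube genes by their known roles, and the part of pollen RNA in their values was not tested.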

How the data were processed

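RNA-Seq was measured in 2 central cell libraries of Landsberg *erecta*, grouped by the labels into 1 condition. The authors corrected the SOLiD reads of 50 bases and mapped them with TopHat 1.2 on TAIR10 (tool and build per the submitters' processing notes). They gave a read with several alignments weights by its unique neighbours, and divided ambiguous hits between loci in proportion to unambiguous ones. The deposited numbers are expected counts, here called hits, without normalization. Loci under 5 hits or lacking 3′ end hits were dropped by the authors. The minimum in both files was 5, and 75.6% and 75.0% of the values were whole. The libraries are unstranded, so that overlapping genes cannot be told apart.

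Hits were scaled per 1000000 listed hits (HPM). Levels of different genes were divided by the longest annotated transcript. Positions and sequences came from RefSeq TAIR10.1, the next release of the assembly the authors used, and the listed loci without a match in it numbered 120 and 130. Intervals are exact 95% Poisson intervals of the hits. Loci of like hits lie within 1.5 times. Transcripts were searched for shared words of 50 bases, the read length. Shares of identical residues came from global alignments of the proteins in pairs with Biopython, over the aligned residues. To choose the stretches of 120 coding bases, proteins were aligned with MAFFT 7.526. The 10 genes and all lists were chosen with earlier results of these data known. Named were all 10 genes, every CrRLK1L and MLO gene and, of each other list, the 3 listed genes with the most HPM. Further genes of those lists were chosen after their values were seen. These were RALF4, the other partners, MYB98, VDD, the other egg cell markers, ACA9 and the unlisted ovule genes. Alternatives were minimums of 10 and 20 hits, other totals, TMM (edgeR 4.0.16) and DESeq2 1.42.0 size factors over the 13426 loci listed in both with hits rounded, a pseudocount, other lengths and leaving out each replicate. Marker sums without their leading gene and folds without division by length were added after seeing the data. On simulated counts, both normalizations were tested and returned the scale put in. Python 3.11.15, Biopython 1.88, numpy 2.4.6, pandas 2.3.3, scipy 1.17.1, matplotlib 3.10.9 and R 4.3.3 were used.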

Additional observations from a re-analysis of the deposited data

How the results depend on the processing

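NTA kept the first place with each of the transcript lengths tried. Its log2 ratio of CC2 to CC1 stayed between -0.57 and -0.49 with the nuclear total, TMM, DESeq2 size factors and a pseudocount of 1 hit, and that of LRE between 0.68 and 0.82. The number of the 10 genes listed in both replicates fell from 2 to 1 with a minimum of 10 hits and to 1 with a minimum of 20. A single replicate listed 5 of the 10 genes, whichever was left out, and 6 of the CrRLK1L genes, and the MLO genes listed came to 7 to 10. The summed level of the 10 genes was 83.2 HPM, 120.6 with the 100 most abundant loci left out of the total, which makes the total smaller, and 65.0 to 101 with 1 replicate left out. FER exceeded the next lower gene by 1.17 on the log2 scale per kilobase, by 1.47 without division by length and by 1.47 with the length limited to 1500 bases, where HERK1 instead of LRE was next, and by 1.59 without CC2. FER has a value in CC1 only, so that the first of these sets it against the mean of LRE over both replicates and the 1.47 against HERK1 in CC2, which are different libraries. Without CC1, FER has no value. Of 32 levels of single genes under another total or normalization, 25 stayed within the spread between replicates or the counting interval and 7 did not, all of these with the 100 most abundant loci left out. No paired analysis was possible because there is 1 condition and no groups share replicate numbers. With 2 replicates, an SD is a rough measure of the spread. LRE and LLG3 rest on 8 to 13 hits.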
